A study of Mus musculus with 44 samples.

Results

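The genes described here are 34 neuronal genes whose products make up the postsynaptic side of excitatory and inhibitory synapses, or whose RNA is carried into dendrites. They were taken from a list of symbols, and all 34 matched 1 Ensembl gene each in GENCODE release M21, out of 50714 gene identifiers counted in every library. Among them, 5 were set apart as dendrite-localized RNAs: Camk2a, Ddn, Shank1, Map2 and Dlg4. The other 29 serve as their comparison. Whether RNA of these 29 is also carried into dendrites was not examined, so the contrast is not one of dendritic against non-dendritic RNA.

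A postsynaptic density is a sheet of scaffold proteins under the synaptic membrane that holds glutamate receptors, kinases and cytoskeletal anchors in place. Most of its proteins are made from mRNA in the cell body, but some mRNAs, Camk2a and Map2 among the best known, are packed into granules, moved along microtubules and translated near synapses. A fraction enriched for pinched-off synapses is therefore a place where such RNAs are commonly looked for. Microglia, the resident macrophages of the brain, do not depend on these genes for their own identity. In an immunoprecipitate of microglial ribosomes the cells that supplied the RNA of each gene were not tested.

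The libraries hold RNA of mouse dorsal cortex and hippocampus, taken at postnatal days 28 to 29. All animals carried CX3CR1-CreERT2 (+/-) and RPL10a-GFP flox (+/-), so that tamoxifen lets cells with an active Cx3cr1 promoter, in brain mainly microglia but also other macrophages, make a GFP-tagged ribosomal protein. Tamoxifen (100 mg/kg in sunflower seed oil and ethanol) or vehicle was given at postnatal days 15, 17 and 19. The series design names the floxed allele as fl/fl and the controls as untreated, whereas the sample labels give +/- and vehicle. There were 8 tamoxifen replicates (D to K) and 3 vehicle controls (A to C), each with 4 libraries. Input is RNA of the homogenate, and MG_TRAP is the GFP immunoprecipitate from it (translating ribosome affinity purification). SN_input is RNA of the synaptosome preparation, and PeMP_TRAP, named SN_TRAP for replicates G to K, is the immunoprecipitate from that preparation. The letters A to F make up a first set, G to K a second, told apart by the style of their titles, and controls are found only in the first set. Whether a letter is 1 animal is not stated, so p-values measure the spread between libraries, which may be in part technical.

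Reads assigned to genes numbered between 3278640 and 19887561 per Input library. MG_TRAP libraries had between 1518955 and 27458252, SN_input between 3905745 and 15038837, and PeMP_TRAP between 740679 and 35427238. The second-set PeMP_TRAP libraries were deep but held few genes: 5372 to 7369 genes had any read, against 11694 to 13096 in first-set tamoxifen PeMP_TRAP. The fractions carried their labelled cells. The summed level of 10 microglial markers rose from 207 to 404 CPM (counts scaled to a fixed library total) in tamoxifen Input to 17252 to 42812 in MG_TRAP and 13783 to 60985 in PeMP_TRAP, and all 10 passed the test in both immunoprecipitates. Control MG_TRAP held 3065 to 7387 CPM of these markers.

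In Input of tamoxifen mice all 34 genes were above the detection floor of 3 reads in every library. Together they took 1.43% to 2.02% of the assigned reads there. Per kilobase of exon, Nrgn was highest at 11.23 ± 0.47 log2 CPM per kb (SD, n = 8). It encodes neurogranin, a small calmodulin-binding protein of dendritic spines. Ppp3ca, the catalytic subunit of calcineurin, stood at 7.01 ± 0.19 and Camk2a, the alpha subunit of calcium/calmodulin-dependent kinase II, at 6.82 ± 0.99, so that these 2 did not differ beyond their spread. Shank3, a master scaffold, was lowest at 0.37 ± 0.57, below Cacng8, an auxiliary subunit of AMPA receptors, at 1.30 ± 1.5, and these 2 did not differ beyond their spread either.

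The first comparison asked how these RNAs are represented in the synaptosome preparation relative to the homogenate. In tamoxifen mice 3 of the 34 genes rose and none fell in the fit across all 4 fractions, where 2.55% of 15710 genes passed in either direction and 2.08% were higher. The 3 were Shank3, Ppp1r9b and Shank1. In the same fit RLE factors and total counts each called Ppp1r9b higher and Ppp3ca lower and no other of the 34, and DESeq2 called Shank3 and Ppp1r9b higher and Ppp3ca lower. Among the 5 dendrite-localized RNAs, Shank1 was the only one to pass, and the median log2 fold change of the 5 was 0.99, against 0.07 for the other 29 and -0.02 for all genes tested. All of these are tissue mixtures, in which fewer cells of a type and less RNA per cell cannot be told apart.

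Shank1 is a scaffold that links receptor complexes to the actin skeleton, and its mRNA is a classic dendritic transcript. Its level was 6.32 (lowest), 8.52 (median) and 11.95 (highest) log2 CPM over the 8 tamoxifen Input libraries, and 9.33, 10.63 and 13.41 in SN_input. The 2 groups overlapped, and replicates E and F were the highest in both. SN_input lay above the Input library of the same letter in 8 of 8, a count given here and below as a description only. Deviations of same-letter libraries correlated weakly over all genes, which does not settle pairing for a single gene. The tests reported do not pair them unless a replicate block is named. The fitted log2 fold change was 2.13 (SE 0.59, adjusted p = 0.040 in edgeR, with alternatives from 3.2e-10 to 0.96), and it passed in 8 of 20 alternatives. The gene (ENSMUSG00000038738) lies on chromosome 7, 44310253 to 44360572, on the plus strand of GRCm38.

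Ppp1r9b encodes spinophilin, an actin-binding scaffold that brings protein phosphatase to dendritic spines. It measured 6.77, 8.16 and 8.38 log2 CPM (lowest, median, highest) in Input and 8.28, 10.56 and 10.99 in SN_input, with an overlap at the edge of the ranges and a higher value in SN_input for 8 of 8 letters. Its fitted change was 2.29 on the log2 scale (SE 0.34, edgeR adjusted p = 1.2e-05, with alternatives from 1.1e-10 to 0.83), and it passed in 18 of 20 alternatives. It lies on chromosome 11, 94991035 to 95006899 (ENSMUSG00000038976). Shank3, on chromosome 15 at 89499623 to 89560261 (ENSMUSG00000022623), measured 2.94, 3.39 and 4.70 in Input and 5.35, 6.10 and 7.71 in SN_input, without overlap. Its fitted change was 2.83 on the log2 scale (SE 0.81, edgeR adjusted p = 0.049, with alternatives from 1.6e-07 to 0.77), and it passed in 5 of 20 alternatives. Leaving out any 1 of replicates E to K left 1 of the 34 genes past the threshold, Ppp1r9b, and leaving out replicate D gave 4, with Shank1, Ppp1r9b and Agap2 higher and Ppp3ca lower.

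The other 4 dendrite-localized RNAs did not pass in that fit. Camk2a measured 8.2, 10.19 and 10.64 log2 CPM (lowest, median, highest) in Input and 8.89, 10.66 and 11.24 in SN_input. The ranges overlapped, and each of 8 letters was higher in SN_input, with a log2 fold change of 0.99 (SE 0.42, adjusted p = 0.30). Ddn, which encodes dendrin, a protein of the postsynaptic density, measured 6.85, 8.03 and 8.25 in Input and 8.22, 9.50 and 9.80 in SN_input. These ranges touched at 1 library, and 8 of 8 letters were higher, with a log2 fold change of 1.53 (SE 0.46, adjusted p = 0.064).

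Map2 and Dlg4 gave values near 0 with TMM, and the value of Dlg4 turned negative with RLE, total counts and DESeq2. Map2, a microtubule-associated protein of dendrites, measured 8.19, 8.35 and 8.62 in Input and 6.93, 7.97 and 8.79 in SN_input, with a log2 fold change of -0.03 (SE 0.68). Dlg4, which encodes PSD-95, measured 5.18, 6.83 and 7.07 in Input and 1.85, 6.70 and 7.12 in SN_input, with a log2 fold change of 0.10 (SE 0.80). The lowest of these SN_input values was replicate D, with 20 reads of Dlg4. For both genes the ranges overlapped nearly throughout, and SN_input was higher for 3 of 8 letters.

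**Figure D1:**
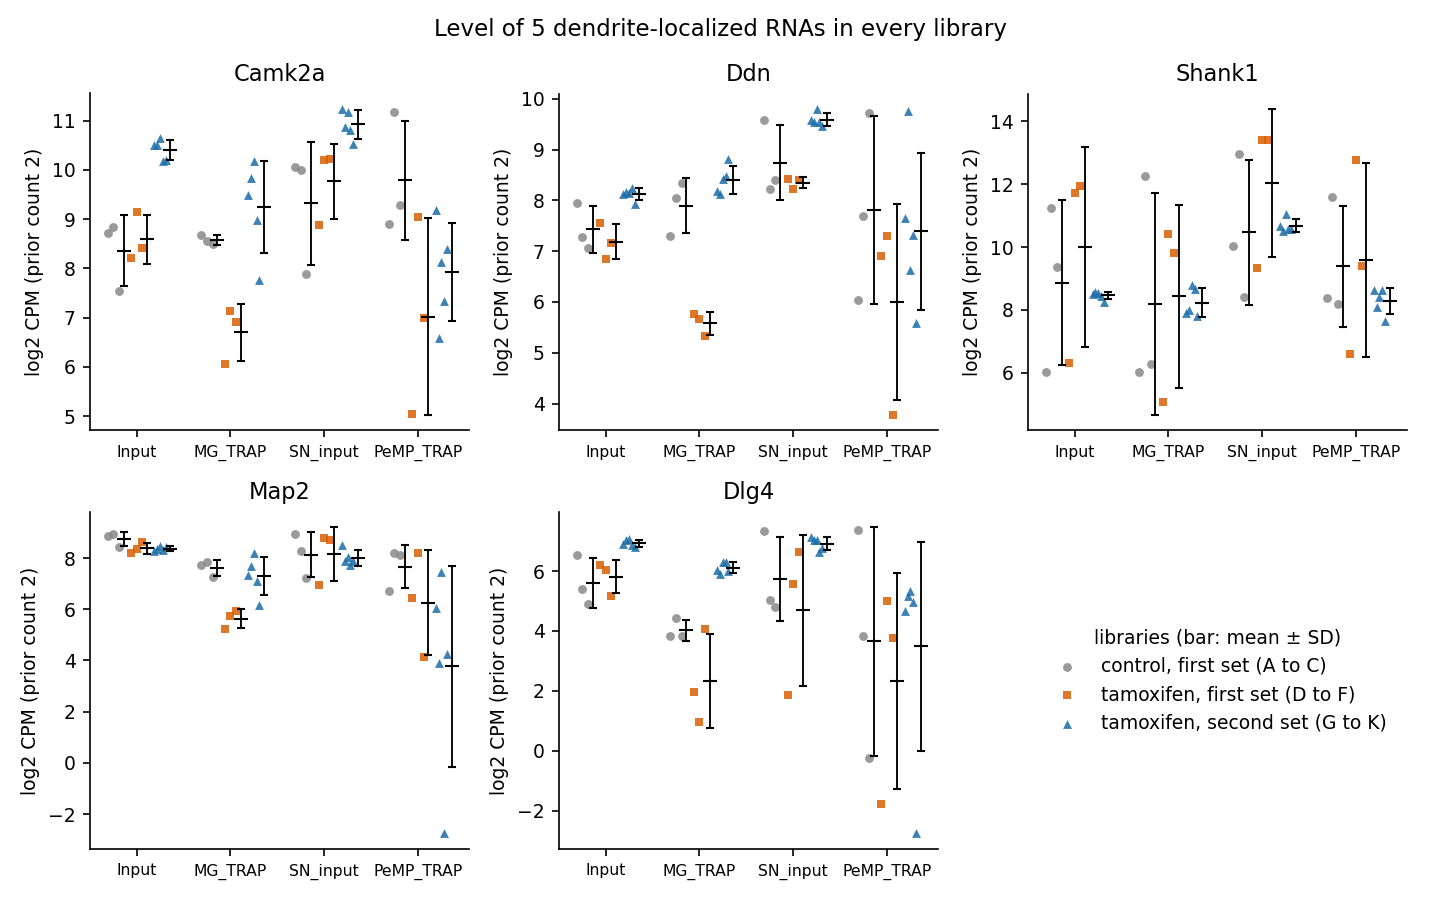
Level of Camk2a, Ddn, Shank1, Map2 and Dlg4 in each of the 44 libraries (vertical axis, log2 CPM with a prior count of 2) by fraction (horizontal axis). Each point is 1 library, and bars give the mean and SD of control first-set (n = 3), tamoxifen first-set (n = 3) and tamoxifen second-set (n = 5) libraries; the second-set points of Ddn and Shank1 lie higher in SN_input than in Input, those of Map2 and Dlg4 overlap, and PeMP_TRAP points spread down to -2.76.

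That fit gives each gene 1 spread over all 4 fractions, and PeMP_TRAP libraries scattered far more than the other fractions (Map2, for example, had an SD of 3.42 in PeMP_TRAP and 0.13 in Input). A refit on SN_input and Input libraries alone was therefore added after seeing the data. With both sets it called 14 of the 34 genes, against 19% of 14620 genes: 10 were higher (Camk2a, Shank1, Shank3, Ddn, Grin2a, Dlgap3, Ppp1r9b, Psd, Icam5 and Agap2) and 4 lower (Camk2b, Gphn, Ppp3ca and Camkv). With the second set alone, 5 libraries against 5, it called 28 of 34, 13 higher and 15 lower, where 48% of 14392 genes passed, 24.7% higher and 23.3% lower. With the first set alone, 3 against 3, it called none of the 34 and none of 11288 genes. So in the tight second set most of these RNAs moved, in both directions at once, and their median log2 fold change was 0.05 against -0.09 for all genes tested.

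In this second-set refit 3 of the 5 dendrite-localized RNAs rose: Shank1 by 2.34 (SE 0.10), Ddn by 1.58 (SE 0.08) and Camk2a by 0.65 (SE 0.13) on the log2 scale. Shank1 measured 8.26 to 8.57 log2 CPM in Input and 10.51 to 11.04 in SN_input, and Ddn 7.93 to 8.25 and 9.46 to 9.80, both without overlap. Map2 was at -0.22 (SE 0.13) and Dlg4 at 0.11 (SE 0.10), and neither passed. The medians were 0.65 for the 5 and -0.25 for the other 29.

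The scale of this comparison depends on how libraries are equalised. With RLE size factors the second-set refit called 29 of the 34 genes, 14 higher and 15 lower, and the median of all genes was -0.08. The share of all genes that passed with RLE is not given here, and with TMM it was 48%. Scaling to total counts moved the median of all genes to -0.86 and gave 6 higher and 20 lower among the 34 (11.6% of all genes higher and 52% lower). Shank1, Shank3, Ddn, Dlgap3, Ppp1r9b and Agap2 were called higher under all 3 scalings, whereas the fitted value of Camk2a turned to -0.12, that of Dlg4 to -0.66, that of Grin2a to -0.17 and that of Nrgn to -0.26 with total counts.

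By role, the second-set counts below stand against 24.7% of all genes higher and 23.3% lower with TMM, and 11.6% and 52% with total counts. Kinases and calcium signalling genes had 2 of 6 higher and 3 lower, and with total counts 0 higher and 4 lower. Camk2a and Nrgn (0.51, SE 0.13) rose. Camk2b, the beta subunit of the same kinase, fell by 1.55 (SE 0.08), Camkv, a kinase-like protein without catalytic activity, fell by 1.32, and Ppp3ca fell by 1.29. Itpka, which phosphorylates inositol trisphosphate and bundles actin, was at 0.35 and did not pass. Over both sets Camk2b measured 8.71, 9.34 and 9.46 log2 CPM (lowest, median, highest) in Input and 7.18, 7.54 and 7.86 in SN_input. All Input libraries lay above all SN_input libraries, although the fit across 4 fractions gave a log2 fold change of -1.49 (SE 0.72) that did not pass.

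Scaffolds had 4 of 11 higher and 6 lower, and with total counts 3 higher and 7 lower. Shank1, Shank3 (2.60, SE 0.21) and Shank2 (0.44) rose, and so did Dlgap3 (1.57), a linker between PSD-95 and the Shanks. Its relatives Dlgap1 (-0.29) and Dlgap2 (-0.60) fell, together with Dlg3 (-1.18), which encodes SAP102, Homer1 (-0.86), which ties group I metabotropic receptors to the Shanks, and Lrrc7 (-1.54), which encodes densin. Gphn, which encodes gephyrin, the scaffold of inhibitory synapses, fell by 1.45, and over both sets it was lower in SN_input for 8 of 8 letters without overlap. The presynaptic genes, a list of 20 that includes synapsins and the vesicle release machinery, had 4 higher and 12 lower in the same refit, with a median of -0.41.

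Glutamate receptor subunits had 1 of 7 higher and 4 lower in the second-set refit, and with total counts 0 higher and 6 lower. Over both sets the refit called 1 higher and 0 lower, and the fit across 4 fractions called none, with 5 of 7 above 0 and a median of 0.26. In the second set Grin2a, an NMDA receptor subunit, rose by 0.60, while Grin1 (-0.27), the obligatory NMDA subunit, Grin2b (-0.25), Gria2 (-1.25) and Gria3 (-0.53) fell. Gria1 was at 0.09 and Grm5, a metabotropic receptor, at 0.01, and neither passed. Both Arf regulators rose, Psd by 1.00 and Agap2 by 2.21, and so did Ppp1r9b (2.56, SE 0.10). Of the AMPA receptor auxiliary subunits Cnih2 rose by 0.93 and Cacng8 was at 0.46 without passing. Among adhesion genes Icam5, which encodes telencephalin of dendrites, rose by 0.65, and the neuroligins Nlgn1 (-0.65) and Nlgn3 (-0.54) fell. Nlgn3 shares 41.2% of its exonic bases with a gene on the same strand (Gm21986), and Icam5 shares 30.8% and Grin1 13.5% with genes on the other strand, so reads of these 3 are less certain.

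**Figure D2:**
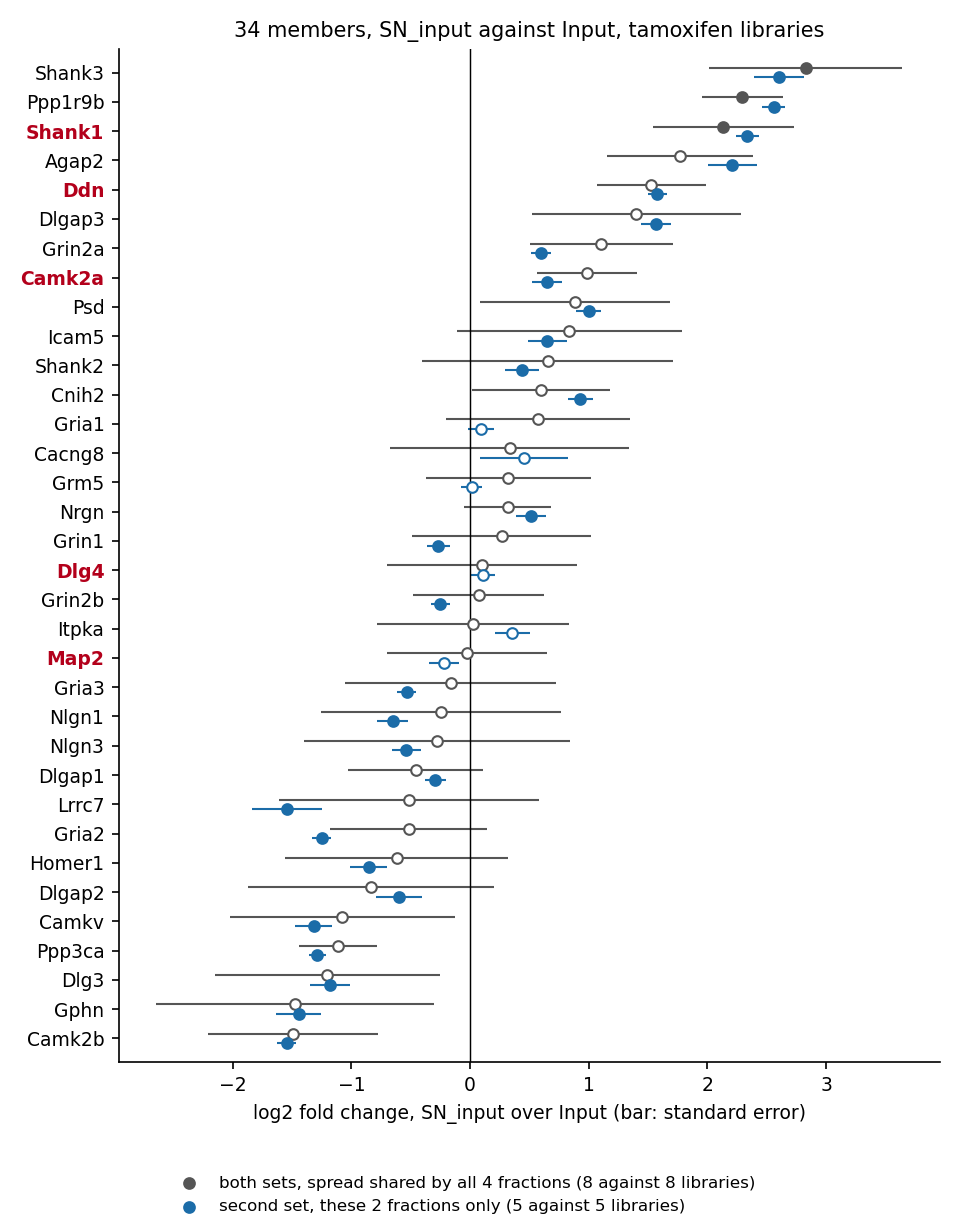
Log2 fold change of the 34 genes between SN_input and Input of tamoxifen mice (horizontal axis, with standard errors), ordered by the fit across all 4 fractions. Grey is that fit on 8 against 8 libraries, blue the refit on the 2 fractions of the second set with 5 against 5, filled points passed an adjusted p of 0.05 and open points did not; 3 grey and 28 blue points are filled, and names in red are the 5 dendrite-localized RNAs.

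The direction of each gene was read in 3 groups of libraries that have no library in common. In the fits across 4 fractions 16 of the 34 were above 0 between SN_input and Input in control mice, in first-set tamoxifen mice and in second-set tamoxifen mice, among them Camk2a, Shank1, Shank3, Ddn, Ppp1r9b, Dlgap3, Psd and Agap2. In all 3 groups 8 were below 0: Camk2b, Dlg3, Homer1, Dlgap1, Dlgap2, Gphn, Ppp3ca and Camkv. The other 10, Map2 among them, were mixed. Dlg4, Cacng8 and Cnih2 count among the 16 only by first-set values of 0.01, 0.02 and 0.08, and refitting the first set on these 2 fractions gave -0.41, -0.23 and -0.29. Across the 34 genes the fold changes of the second set had a Spearman correlation of 0.76 with those of the first set and of 0.64 with those of controls. Genes are not independent replicates, and directions hold for TMM scaling. In controls alone 0 of 34 and 0% of 14771 genes passed in edgeR, with 2 of the 34 at an unadjusted p under 0.05 and values from -1.59 for Dlg3 to 3.51 for Shank3. A difference between the sets in the change from Input to SN_input passed in edgeR for none of the 34 and for 0% of all genes, with none of the 34 at an unadjusted p under 0.05 and values from -1.68 for Lrrc7 to 1.44 for Dlgap2.

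Length and level went weakly with these changes. Across the 34 genes the Spearman correlation of the log2 fold change between SN_input and Input with transcript length was 0.16, with coding length 0.33, with the length of the 3′ untranslated region 0.02 and with the Input level -0.09. Other lists read beside them in the fit across 4 fractions had no gene that passed: 22 other postsynaptic density genes had a median of -0.16, 9 genes of the inhibitory postsynapse -0.31, 6 other dendritic RNAs such as Arc and Bdnf -0.29, and the presynaptic genes 0.03.

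Other cell types moved with the preparation. In SN_input of tamoxifen mice the 10 microglial markers all rose (summed 688 to 4992 CPM against 207 to 404 in Input), 3 of 6 astrocyte markers rose (3660 to 9777 CPM against 1551 to 3702) and 3 of 6 oligodendrocyte markers rose (3262 to 60629 CPM against 3431 to 8614). The 5 markers of neuronal cell bodies summed to 436 to 841 CPM against 2133 to 3129, without overlap, though none passed, and the 3 GABAergic markers to 58.7 to 106 CPM against 231 to 572. No marker of these lists was at 0 in every library of either fraction. The share of reads held by the 34 genes was 0.859% to 1.31% in tamoxifen SN_input. The part of these shifts in the results above was not tested.

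Within a library, genes can be compared without scaling as long as they have reads. In PeMP_TRAP this does not hold, because genes with 0 reads (6 to 14 of the 34 in second-set libraries) are set at a fixed -2.76 log2 CPM before division by length. The mean log2 CPM per kb of the 5 dendrite-localized RNAs minus that of the other 29 was 1.05 ± 0.07 (SD, n = 5) for Input of the second set and 1.94 ± 0.08 for its SN_input, from 0.95 to 1.14 and from 1.84 to 2.01, without overlap. Over all 8 tamoxifen replicates it was 0.84 ± 0.39 in Input, 1.03 ± 0.41 in MG_TRAP, 1.76 ± 0.43 in SN_input and 2.86 ± 0.64 in PeMP_TRAP. Controls stood at 0.50 ± 0.25, 0.13 ± 1.09, 0.75 ± 0.94 and 0.83 ± 0.69 in the same order (n = 3), with overlap between all 4 fractions. The shift from Input to SN_input was 0.92 in tamoxifen mice and 0.24 in controls. With medians over the genes in place of means the tamoxifen shift was 2.02, and the control shift from SN_input to PeMP_TRAP turned from 0.087 to -1.11. Without Shank1 among the 5 it was 0.56 in tamoxifen mice. Measured against the 17 other genes with an Input level of at least that of the lowest of the 5, it was 0.95.

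**Figure D3:**
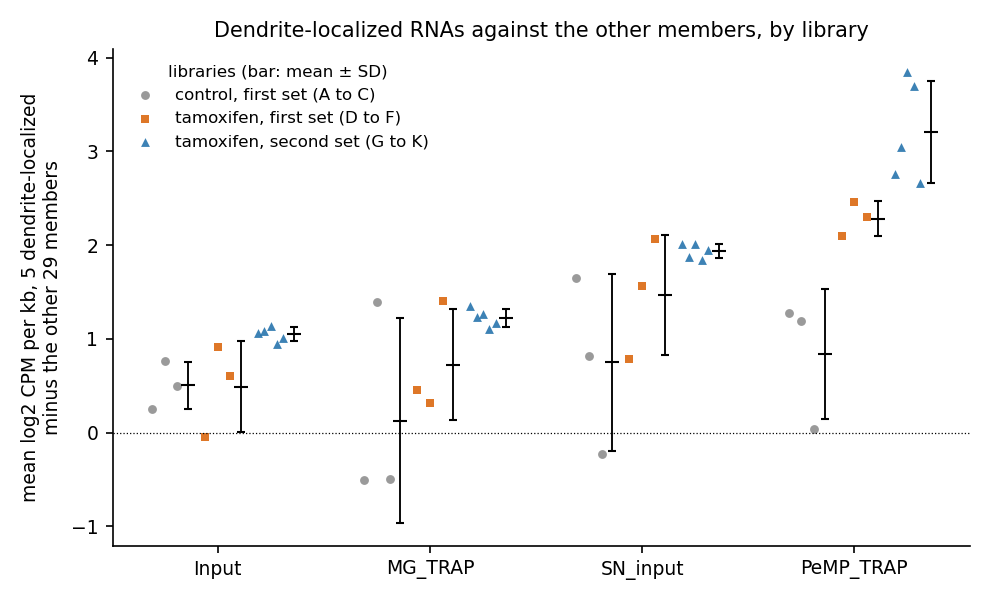
Mean log2 CPM per kb of the 5 dendrite-localized RNAs minus that of the other 29 genes (vertical axis) in each of the 44 libraries, by fraction (horizontal axis). Bars give mean and SD per group; the second-set Input libraries lie between 0.95 and 1.14, the second-set SN_input libraries between 1.84 and 2.01, and the tamoxifen PeMP_TRAP libraries between 2.09 and 3.85.

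Ratios of related genes are given as a description. The pairs were chosen after their values had been seen, so the direction of each ratio was fixed by that choice and supports nothing further. The log2 ratio of Camk2a to Camk2b per kb was 1.31 ± 0.17 (SD, n = 5) for Input of the second set and 3.50 ± 0.17 for its SN_input. In all 8 tamoxifen replicates it was 0.79 ± 0.83 and 3.26 ± 0.54, and in controls -0.30 ± 0.45 and 1.73 ± 1.22 (n = 3), without overlap between Input and SN_input in each case. For Dlgap3 to Dlgap1 the second-set ratio was -0.48 ± 0.19 in Input and 1.39 ± 0.20 in SN_input. Shank1 to Shank2 gave 2.09 ± 0.13 and 4.01 ± 0.33, Shank3 to Shank2 gave -2.87 ± 0.23 and -0.72 ± 0.32, and Dlg4 to Dlg3 gave -0.14 ± 0.31 and 1.14 ± 0.20. The first set scattered more. Over its tamoxifen libraries Shank1 to Shank2 was 4.35 ± 3.79 in Input and 5.72 ± 2.87 in SN_input, and Dlg4 to Dlg3 was -1.37 ± 0.74 and 0.39 ± 1.68 (n = 3), with overlap in both. In control C the ratio of Shank1 to Shank2 was 4.59 in Input and 2.40 in SN_input, and in replicate E that of Dlg4 to Dlg3 was -1.53 and -1.55.

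**Figure D4:**
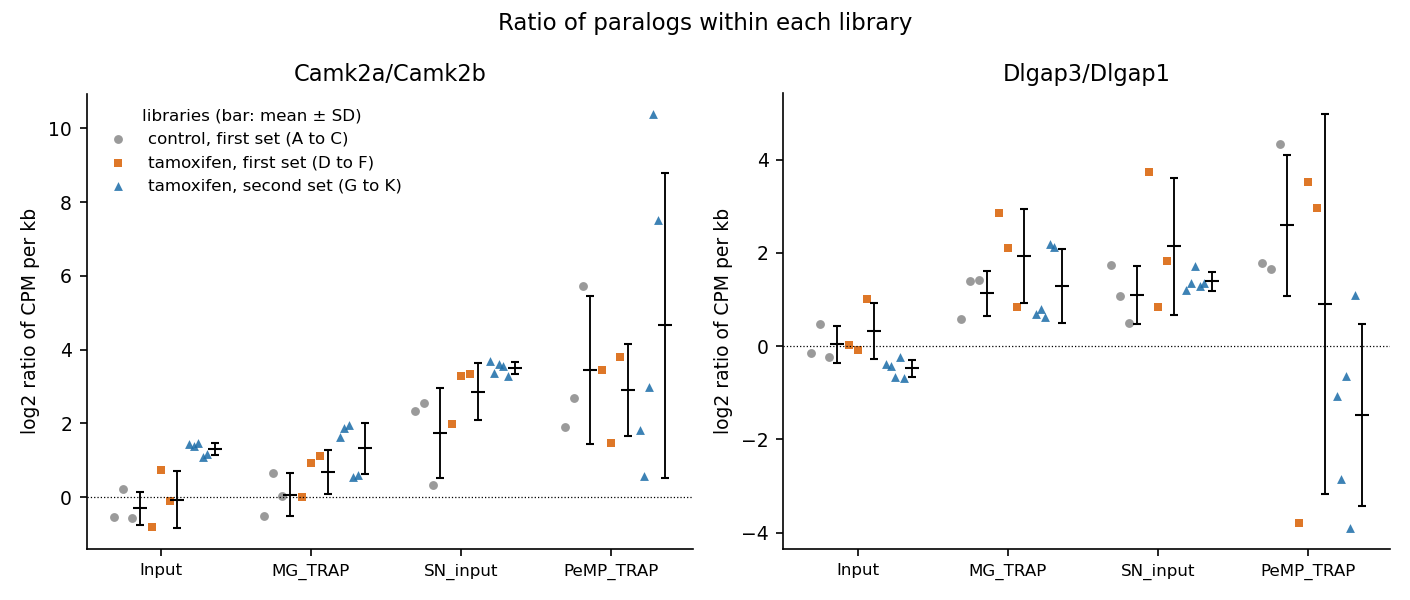
Log2 ratio of CPM per kb of Camk2a to Camk2b (left) and Dlgap3 to Dlgap1 (right) in each library (vertical axis), by fraction (horizontal axis), with mean and SD per group. The Camk2a to Camk2b ratio of second-set libraries moves from 1.31 ± 0.17 in Input to 3.50 ± 0.17 in SN_input, and PeMP_TRAP ratios of tamoxifen mice spread from 0.57 to 10.38 where Camk2b has few or no reads.

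The second comparison asked how much of these RNAs the homogenate immunoprecipitate carries. In tamoxifen mice Nrgn and Ppp3ca fell in MG_TRAP relative to Input, 2 of the 34 genes against 6.82% of all genes (2.15% lower and 4.67% higher). Below 0 were 31 of 34, with a median log2 fold change of -1.16 against -0.14 for all genes, and the exceptions were Shank3 (0.79), Dlgap3 (0.65) and Shank2 (0.20). Other lists were lower beside them: the summed markers of neuronal cell bodies were at 223 to 1456 CPM against 2133 to 3129 in Input (0 of 5 passed), those of GABAergic neurons at 21.2 to 232 against 231 to 572 (0 of 3), and those of astrocytes at 266 to 1985 against 1551 to 3702 (1 of 6 fell), and 5 of 20 presynaptic genes fell, with a median of -1.5. Oligodendrocyte markers, at 403 to 14999.9 CPM against 3431 to 8614, overlapped (1 of 6 fell), and 10 of 10 microglial markers rose. The part of these shifts was not tested. Nrgn measured 11.31, 11.65 and 12.75 log2 CPM (lowest, median, highest) in Input and 9.13, 9.89 and 10.61 in MG_TRAP. The groups did not overlap, and its log2 fold change was -1.83 (SE 0.38, adjusted p = 0.0011 in edgeR, with alternatives from 2.1e-07 to 0.13). For Ppp3ca it was -1.39 (SE 0.33, adjusted p = 0.0049 in edgeR, with alternatives from 5.3e-06 to 0.20), also without overlap.

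The refit on these 2 fractions, added after seeing the data, called 18 of 34 genes lower and none higher (9.18% of all genes lower), with the NMDA subunits Grin1 and Grin2a, 3 AMPA subunits, Camk2a, Map2 and Dlg4 among them. In the second set alone 12 fell and 1 rose, Dlgap3 by 1.30, where 24.1% of all genes passed, and Ddn was at 0.35. In the first set alone 7 fell, where 7.57% of all genes passed and 1.63% were lower. The 5 dendrite-localized RNAs and the other 29 had close medians in the fit across 4 fractions, -1.14 and -1.18. The authors' deposited table covers the first set only, and its headers give Input and SN_Input without a treatment, so its groups are not those fitted here. For 7 of the 34 the authors' deposited table had an FDR under 0.05 for MG_TRAP of tamoxifen mice against Input (Dlgap1, Gria2, Grm5, Homer1, Map2, Nrgn and Ppp3ca). In the authors' deposited table none passed between SN_input and Input, where the lowest FDR was 0.0672, that of Shank3.

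Control immunoprecipitates also held these RNAs. In control mice the 34 genes took 1.10% to 1.85% of the reads of MG_TRAP and 1.63% to 2.18% of those of Input. In tamoxifen mice their share of MG_TRAP reads was 0.21% to 0.429% in the first set and 0.562% to 1.08% in the second. Between MG_TRAP and Input of control mice 0 of 34 passed in edgeR (0.0135% of all genes), with 1 at an unadjusted p under 0.05, a median of 0.06, and values from -4.30 for Cacng8, which had 0 reads in 2 of 3 MG_TRAP libraries, to 2.52 for Shank3. Between tamoxifen and control MG_TRAP none of the 34 and 0% of 14771 genes passed in edgeR. DESeq2 called 2 of the 34, 13 had an unadjusted p under 0.05, and 33 lay below 0, with a median of -1.99 and a lowest value of -3.34 for Nlgn1. Shares of all genes for the DESeq2 and unadjusted counts are not given here. The 1 gene above 0 was Cacng8, which had at most 3 reads in every first-set tamoxifen MG_TRAP library and 0 reads in 2 of 3 controls, so that no fold is given. The next highest was Grin2b at -0.63. Other cell types moved too, from first-set control to first-set tamoxifen MG_TRAP. Summed markers went from 3065 to 7387 CPM to 28581 to 42812 for microglia and from 1663 to 6389 to 266 to 527 for astrocytes. They went from 2660 to 10317 to 403 to 1784 for oligodendrocytes and from 257 to 1046 to 21.2 to 57.5 for GABAergic neurons. Cell body markers went from 4673 to 5499 to 223 to 567, and endothelial markers overlapped. Their part was not tested. A difference between treatments in the change from Input to MG_TRAP passed in edgeR for none of the 34 (0% of all genes), with 5 at an unadjusted p under 0.05 and values from -3.86 for Nlgn3 to 1.15 for Cacng8, the latter again on nearly no MG_TRAP reads. A difference between the sets passed for none either (0% of all genes), with 1 at an unadjusted p under 0.05. All 34 were above 0 in the second set minus the first, with a median of 1.64 and values from 0.08 for Dlg3 to 2.74 for Nlgn3. Without replicate D, I or K the value of Dlg3 turned negative. In tamoxifen MG_TRAP summed markers also differed from the first to the second set. They were 28581 to 42812 and 17252 to 26047 CPM for microglia, 266 to 527 and 745 to 1985 for astrocytes, and 223 to 567 and 1014 to 1456 for cell bodies. GABAergic markers were higher in the second set without overlap, and those of oligodendrocytes and endothelium overlapped. Their part was not tested.

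The third comparison asked which of these RNAs remain in the immunoprecipitate of the synaptosome preparation. In tamoxifen mice 20 of the 34 genes fell in PeMP_TRAP relative to SN_input and none rose, where 32.3% of all genes passed, 26.1% lower and 6.15% higher. All 34 lay below 0. Their median log2 fold change was -1.93, or -1.86 with Cacng8 at its bound, against -0.75 for all genes. By role the counts were 4 of 6 kinases and calcium signalling genes, 6 of 11 scaffolds, 5 of 7 glutamate receptors, 2 of 3 adhesion genes, 1 of 2 Arf regulators, 1 of 2 AMPA receptor auxiliary subunits and 1 of 3 cytoskeletal genes. The presynaptic list had 13 of 20 lower and 1 higher. Other cell types moved with this comparison, from tamoxifen SN_input to tamoxifen PeMP_TRAP. Summed markers went from 688 to 4992 CPM to 13783 to 60985 for microglia and from 3660 to 9777 to 520 to 3050 for astrocytes. Those of oligodendrocytes went from 3262 to 60629 to 702 to 5962, with overlap, and endothelial markers overlapped as well. Their part in the result was not tested.

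Camk2a measured 5.04, 7.73 and 9.18 log2 CPM (lowest, median, highest) in PeMP_TRAP. This overlapped SN_input at its edge, and PeMP_TRAP was lower for 8 of 8 letters, with a log2 fold change of -2.22 (SE 0.44, edgeR adjusted p = 0.00027, with alternatives from 2.2e-06 to 0.40). Shank1 measured 6.59, 8.53 and 12.77, lower for 8 of 8 letters, with a log2 fold change of -1.82 (SE 0.59, adjusted p = 0.015, with alternatives from 5.0e-07 to 0.55). Ddn measured 3.77, 7.11 and 9.77, lower for 7 of 8 letters, with -1.35 (SE 0.46, adjusted p = 0.021, with alternatives from 0.0029 to 0.57). All 3 genes overlapped SN_input. Camk2a passed without each replicate in turn, whereas Shank1 did not pass without replicate F and Ddn did not without G, I, J or K.

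Map2 and Dlg4 did not pass in the reported fit. Both were called lower with RLE, with DESeq2 (25 of the 34 genes in either case) and without replicate E. Map2 was also called lower with the replicate block (21 genes). Shares of all genes at these settings are not given here, and in the reported fit 32.3% passed. Map2 measured -2.76, 5.15 and 8.2 in PeMP_TRAP, and -2.76 is the value given to 0 reads, with a log2 fold change of -1.58 (SE 0.70). Dlg4 measured -2.76, 4.83 and 5.35, with a log2 fold change of -1.78 (SE 0.83). In both genes PeMP_TRAP was lower for 8 of 8 letters, the groups overlapped, and 1 library had no read.

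The lowest values among the genes that passed were those of Cacng8, Icam5 and Gphn. Cacng8 had 0 reads in all 8 tamoxifen PeMP_TRAP libraries and was at least 1.73-fold lower than in SN_input, taking 3 reads in the PeMP_TRAP library with the highest floor. Icam5 stood at -5.68 (SE 1.16, adjusted p = 0.00042, with alternatives from 1.2e-10 to 0.17) and did not overlap, with 0 reads in 4 of the 8 PeMP_TRAP libraries. Gphn stood at -4.63 (SE 1.52, adjusted p = 0.017, with alternatives from 5.4e-06 to 0.71), with 0 reads in 5 of the 8 libraries, all of the second set. Gphn did not pass without replicate G. The highest among those that passed was Nrgn at -1.05 (SE 0.37, adjusted p = 0.026, with alternatives from 0.0038 to 0.47), which did not pass without D, G, J or K. Nearest to 0 of all 34 were Cnih2 at -0.39 (SE 0.57) and Ppp1r9b at -0.47 (SE 0.32), which did not pass, although Ppp1r9b was called lower with RLE and in the second set alone.

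Fewer genes passed without the other fractions. On SN_input and PeMP_TRAP libraries alone 6 of 34 genes fell (15.4% of all genes lower): Camk2a, Shank1, Cacng8, Gphn, Ppp3ca and Icam5. The second set alone gave 9 (22.2% lower) and the first set alone 0 of 8968 genes. The authors' deposited table, on first-set libraries with SN_Input of no stated treatment, had 10 of the 34 at an FDR under 0.05, all lower: Dlg3, Gria1, Gria2, Grin2b, Grm5, Homer1, Icam5, Lrrc7, Nlgn1 and Ppp3ca. The change differed between the sets for 1 gene, Gphn (15.1% of all genes), which had no read in second-set PeMP_TRAP, so that its fitted value depends on the prior count. Without E or H 3 genes passed and without G 2 did, Gphn among them each time.

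Detection in PeMP_TRAP was uneven. Of the 34 genes 11 were above 3 reads in all 8 tamoxifen PeMP_TRAP libraries: Camk2a, Ddn, Shank1, Nrgn, Ppp3ca, Ppp1r9b, Cnih2, Dlgap1, Grin2a, Grin2b and Grm5. A further 21 had 0 reads in at least 1 library. Single libraries held 18 to 28 of the 34 genes above the floor in the second set and 23 to 30 in the first. Across the 34 genes the Spearman correlation of the change between SN_input and PeMP_TRAP with the Input level was 0.48. The contrast of the 5 dendrite-localized RNAs with the others was larger by 1.10 in PeMP_TRAP than in SN_input of tamoxifen mice, and by 0.505 when the others were limited to the 17 genes of at least matching Input level. The part of detection in these contrasts was not tested beyond that. The 3 GABAergic markers Gad1, Gad2 and Slc32a1 were at 0 in every second-set PeMP_TRAP library, and the 5 cell body markers summed to 159 to 780 CPM in tamoxifen PeMP_TRAP.

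**Figure D5:**
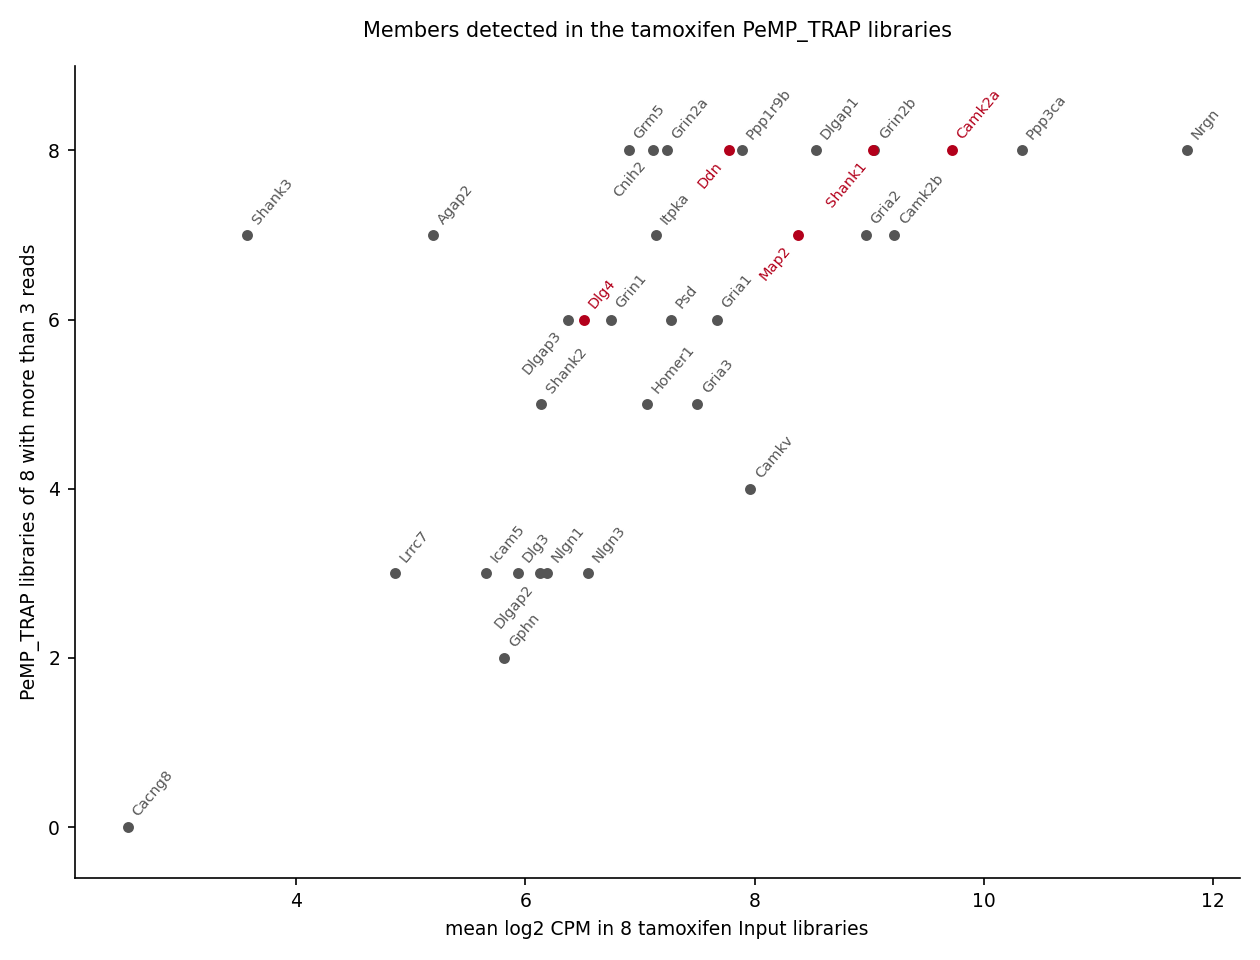
Number of the 8 tamoxifen PeMP_TRAP libraries in which each of the 34 genes had more than 3 reads (vertical axis) against its mean log2 CPM in the 8 tamoxifen Input libraries (horizontal axis). The 5 dendrite-localized RNAs are red; Camk2a, Ddn and Shank1 are among the 11 genes at 8 of 8 (the points of Shank1 and Grin2b coincide), and Cacng8 is at 0.

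In control mice 0 of 34 and 0% of all genes passed between PeMP_TRAP and SN_input in edgeR, with 4 of the 34 at an unadjusted p under 0.05. DESeq2 called 2 of them. The highest value was that of Dlg3 at 3.15, which turned to -2.20 without replicate C. The lowest was that of Cacng8, which had 0 reads in all 3 control PeMP_TRAP libraries and was at least 2.07-fold lower than in SN_input. Between tamoxifen and control PeMP_TRAP 7 of the 34 fell and none rose, where 11.1% of all genes passed and 5.56% were lower. Dlg3 stood at -7.60 (SE 1.71), and at -2.13 without control replicate C. Homer1 stood at -6.06 (SE 1.36) and Icam5 at -5.94 (SE 1.33), and the highest of the 7 were Camkv at -4.32 (SE 1.11), Grm5 at -3.65 and Gria2 at -3.53. The adjusted p of Grm5 was 0.048 in edgeR (alternatives from 0.0091 to 0.12), and it passed in 1 of 10 alternatives, DESeq2. That of Gria2 was 0.023 (alternatives from 0.00046 to 0.12), and it passed in 6 of 10. Gria1 was at -5.66. Without replicate C 3 of the 34 passed (Homer1, Gria1 and Icam5), without F 3 (Dlg3, Gria1 and Icam5) and without E 14, Camk2a among them. None of the 5 dendrite-localized RNAs was among the 7. Other cell types moved with this comparison. From first-set control to first-set tamoxifen PeMP_TRAP the summed markers went from 559 to 8501 CPM to 25545 to 60985 for microglia (7 of 10 rose), from 3494 to 4317 to 520 to 3050 for astrocytes (1 of 6 fell), and from 4455 to 16097 to 702 to 3066 for oligodendrocytes (3 of 6 fell). They went from 268 to 1932 to 2.81 to 348 for endothelium (2 of 4 fell, with Ly6c1 at 0 in all 3 tamoxifen libraries), from 56.6 to 401 to 1.35 to 28.5 for GABAergic neurons (1 of 3 fell) and from 574 to 828 to 196 to 373 for neuronal cell bodies (2 of 5 fell). Their part in the result was not tested. Between tamoxifen and control none of the 34 passed in edgeR in Input or in SN_input (0% of all genes in both, and none of the 34 at an unadjusted p under 0.05 in either). Input values ran from -0.80 for Dlg3 to 1.42 for Gria3 and SN_input values from -1.87 for Dlgap2 to 1.27 for Shank1.

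The 2 immunoprecipitates were also set against each other. In tamoxifen mice 2 of the 34 genes were higher in PeMP_TRAP than in MG_TRAP and 7 were lower, where 25.2% of all genes passed, 3.17% higher and 22% lower. Ppp1r9b was higher by 1.93 (SE 0.33, adjusted p = 0.00013 in edgeR, with alternatives from 6.5e-05 to 0.64), in 8 of 8 letters. It measured 6.01, 8.36 and 8.97 log2 CPM (lowest, median, highest) in MG_TRAP and 6.89, 9.32 and 10.33 in PeMP_TRAP, with overlap. Nrgn was higher by 1.10 (SE 0.37, adjusted p = 0.024, with alternatives from 0.0083 to 0.81), in 4 of 8 letters only. The 7 lower genes were Cacng8, Gphn (-4.92), Icam5 (-3.92), Dlgap2 (-3.61), Dlg3 (-3.42), Camkv (-3.07) and Ppp3ca (-1.67). Nrgn passed in 7 of 18 alternatives: it did not pass with RLE, total counts, DESeq2, the replicate block, the first set alone or any refit on these 2 fractions, nor without E, H or I. Dlgap2 and Camkv did not pass without any 1 of G, H, I, J or K, and Camkv did not without D. None of the 5 dendrite-localized RNAs passed, although Shank1 was called higher with the replicate block and without replicate D, and Camk2a lower in the second set alone. Their median was -0.10 against -0.94 for the other 29. The contrast within libraries was larger by 1.82 in PeMP_TRAP than in MG_TRAP, and by 1.19 with the others limited to matching Input level. On these 2 fractions alone 2 genes passed (10.5% of all genes), Ppp1r9b higher and Gphn lower. In controls 0 of 34 passed in edgeR (0.0406% of all genes, 0.0271% higher), with 4 at an unadjusted p under 0.05, 2 by DESeq2, and a highest value of 2.72 for Grin2b. The lowest fitted value was that of Dlgap2, which had at most 3 reads in every control PeMP_TRAP library, so that no fold is given.

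Last, the change from SN_input to PeMP_TRAP was compared with the change from Input to MG_TRAP. The difference passed below 0 for 3 of the 34 genes, where 11.3% of all genes passed and 10.9% were lower. These were Shank3 at -3.59 (SE 1.13), Icam5 at -4.76 (SE 1.43) and Cacng8, whose fitted value depends on the prior count because PeMP_TRAP had no reads. Shank3 had a fitted value of 0.79 in MG_TRAP against Input, so its difference is not between 2 depletions. In 26 of 34 the difference was below 0, with a median of -1.15 against -0.79 for all genes, and the 3 that passed make a share of the 34 under that of all genes. Without replicate G, I, J or K only Cacng8 passed, without H Cacng8 and Icam5, without D Shank1, Shank3 and Cacng8, and without E 5 genes. Shank3 passed in 6 of 15 alternatives and not with total counts, without a filter or with the replicate block, which called Shank1 in its place. Icam5 passed in 8 of 15 and Cacng8 in 14 of 15. The difference between treatments in the change from SN_input to PeMP_TRAP passed for 1 gene, Homer1 at -6.62 (1.24% of all genes). It did not pass for Homer1 without any 1 of the 6 first-set replicates, although Gria1 passed without E.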

How the data were processed

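The authors deposited read counts per gene for 44 libraries, made from Smart-seq v4 cDNA without molecular identifiers, per the labels' protocols. Per the submitters' processing notes, Trimmomatic 0.38, Bowtie2 2.3.5, STAR 2.7.0d, HTSeq 0.9.1, FastQC 0.11.7 and edgeR were used; the build, annotation and strand setting are not given in the sources used here. The authors also deposited log2 fold changes, log2 CPM, p-values and FDR for the first set, per the file headers. Lines that name no gene were left out of library sizes.

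Counts were tested with edgeR 4.0.16 (R 4.3.3, TMM scaling, quasi-likelihood, genes kept by a minimum count of 10, Benjamini-Hochberg adjusted p under 0.05) on 32 tamoxifen libraries with the set as covariate, or on the 24 first-set libraries where controls enter. DESeq2 1.42.0, RLE and total-count scaling, no filter, a replicate block, each set alone and each replicate left out were alternatives. Refits on the compared fractions alone and the comparison with level-matched genes were added after seeing the data. Levels were computed as log2 CPM (prior count 2), per kilobase of exon union where genes are compared, and the floor is 3 reads per library. The scripts were tested on simulated data. The members and lists were chosen with earlier results of these data known. In each comparison the 3 highest and 3 lowest genes that passed are named, or the highest and lowest where none passed. Standard errors come from the edgeR fit, which includes the spread between libraries, and floors cover counting error only.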

Additional observations from a re-analysis of the deposited data

Results flagged for a closer look

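Each group of 4 to 10 libraries was screened for a value far from the rest, over 28 groups of the 5 dendrite-localized RNAs and their contrast with the other genes, of which 6 stood out. Chance marks about 1 in 20 groups. Replicate D accounted for 4 of the 6. Its contrast of dendrite-localized RNAs with the others was -0.046 in Input and 0.784 in SN_input, both the lowest of 8. Its SN_input library was also lowest for Camk2a at 8.89 log2 CPM and for Dlg4 at 1.85 log2 CPM. In PeMP_TRAP, Shank1 stood out high at 12.77 log2 CPM in replicate E and Map2 stood out low at -2.76 log2 CPM in replicate J, where it had no read.

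Differences between effects that passed an edgeR interaction test are given as log2 differences. Those of Shank3 (-3.59), Icam5 (-4.76) and Cacng8 (-7.69) were between the change by the synaptosome and that by the homogenate immunoprecipitation. That of Gphn (-9.27) was between the second and the first set in PeMP_TRAP over SN_input. That of Homer1 (-6.62) was between tamoxifen and control in PeMP_TRAP over SN_input. Cacng8, Gphn and Icam5 had PeMP_TRAP libraries at 0 reads, so their fitted sizes depend on the prior count.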

How the results depend on the processing

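Numbers of the 34 genes that passed moved with the processing as follows, and the cause was not tested. Percentages give shares of all genes tested, and a count without one is no result about the 34. For SN_input against Input (3 genes, 2.55%) the first set alone gave 0 (0.0463%) and leaving out 1 replicate 1 to 4. The fits on these 2 fractions alone were chosen after seeing the data. They gave 14 with both sets (19%), 28 with the second (48%) and 0 with the first (0%). With the second set RLE gave 29 and total counts 26. For MG_TRAP against Input (2, 6.82%) DESeq2 gave 8 and the first set alone 0 (2.54%). The 2 fractions alone gave 18 (23.3%), 13 with the second set (24.1%) and 7 with the first (7.57%). For PeMP_TRAP against SN_input (20, 32.3%) the first set alone gave 2 (2.87%) and the 2 fractions alone 6 (19.4%), 9 (25.2%) and 0. For PeMP_TRAP against MG_TRAP (9, 25.2%) the first set alone gave 0 (0%) and the 2 fractions alone 2 (10.5%), 2 (14.7%) and 0. The difference between the changes by both immunoprecipitations (3, 11.3%) gave 0 in the first set (0%) and 9 in the second (29.5%). With 1 replicate left out it gave 1 to 5. The set difference of PeMP_TRAP over SN_input (1) gave 2 with RLE, 2 without a filter, 3 with DESeq2 and 1 to 3 with 1 replicate left out. DESeq2 called 2 where edgeR called 0 in control PeMP_TRAP against SN_input, in control PeMP_TRAP against MG_TRAP and in tamoxifen against control MG_TRAP, and 17 rather than 7 in tamoxifen against control PeMP_TRAP, where leaving out 1 replicate gave 3 to 14. The treatment difference of PeMP_TRAP over SN_input (1) gave 2 with RLE, 0 with total counts, 2 without a filter, 5 with DESeq2, 0 with the replicate block and 0 to 1 with 1 replicate left out.

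With medians in place of means the contrast of dendrite-localized RNAs with the others shifted by 2.02 from Input to SN_input and by 2.62 from MG_TRAP to PeMP_TRAP in tamoxifen mice, and by -1.11 from SN_input to PeMP_TRAP in controls; against level-matched genes it shifted by 0.505 from SN_input and 1.19 from MG_TRAP to PeMP_TRAP. Signs turned for Camk2a, SN_input against Input, with total counts (-0.10, and -0.12 on the 2 fractions of the second set); for Dlg4, SN_input vs Input, tamoxifen, with RLE (-0.56), total counts (-1.13, and -0.66 on the second set's 2 fractions), no filter (-0.027), DESeq2 (-0.56), the replicate block (-0.33), the first set's 2 fractions (-0.41) and leaving out 1 replicate (-0.25 to 0.32); for Map2 in the first set alone (0.18) and leaving out 1 replicate (-0.22 to 0.031); for Ddn, MG_TRAP against Input, in the second set (0.33, and 0.35 on its 2 fractions). With 1 replicate left out Dlg3 ran from -0.52 to 0.53 in the set difference of MG_TRAP over Input and from -2.20 to 4.25 in control PeMP_TRAP against SN_input, and the value of Cacng8, treatment difference of MG_TRAP vs Input, from -0.19 to 4.39.

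Scaling moved the median of all genes in SN_input against Input from -0.02 with TMM to -0.72 with RLE and -1.07 with total counts, and the split of all calls from 327 higher and 73 lower to 134 and 109, and 93 and 230. Libraries of the same letter had deviations that correlated from -0.038 to 0.227 over 44 pairs and 18168 genes. The reported fits therefore did not take letters as pairs. A correlation over all genes cannot show whether pairing matters for a single gene. Shank1, for example, was highest of replicates A to F in B, E and F, in both Input and SN_input. The replicate block gave 2, 3, 21, 10 and 3 genes for the 5 tamoxifen comparisons in the order above. Of the log2 fold changes of single genes, 22 of the recomputed values changed sign. Genes with no reads in PeMP_TRAP libraries, the deep second-set ones among them, have fitted values that depend on the prior count.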

Other observations

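Shank1 had the widest range of the 34 genes over the 6 first-set Input libraries. It measured 6.02, 11.23 and 9.36 log2 CPM in controls A, B and C, and 6.32, 11.73 and 11.95 in tamoxifen replicates D, E and F, whereas the 5 second-set Input libraries lay between 8.26 and 8.57. The SN_input libraries of the same letters measured 10.03, 12.97, 8.42, 9.33, 13.41 and 13.39. Replicates B, E and F were thus the highest in both fractions. Grin2b, a subunit of NMDA receptors, measured 6.51, 10.23, 8.49, 7.02, 10.07 and 10.22 in Input A to F, again highest in B, E and F, and lay between 8.94 and 9.08 in the second set.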
